A study of Mus musculus with 8 samples.

Results

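The genes described here encode 2 Wnt ligands (Wnt5a and Wnt4), 3 Frizzled receptors (Fzd1, Fzd2 and Fzd7), 4 secreted antagonists (Sfrp1, Sfrp2, Dkk2 and Dkk3) and Axin2, a feedback inhibitor and target gene of the pathway. They were chosen by gene symbol on the array, and all 10 were present, among 18194 genes named on the array. They were measured by 24 of its 45101 probe sets, a probe set being a group of short DNA probes for 1 transcript. No measured value entered that rule, although the genes were picked with earlier results of these data known.

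Each of 4 groups of cultured cells was read on a pair of Affymetrix mouse arrays, 8 in all. The first group was OP9, a bone marrow stromal line of strain B6C3F1 that supports the development of B-lymphocytes, and the second OP9 with 230-238, the same line after about a week beside 230-238 cells, a pre-B line. The third was NIH3T3, an embryonic fibroblast line, and the last MC3T3, an osteoblast-like line, both labelled Balb/c. Co-culture was compared with OP9 alone to follow the response of the stroma to pre-B cells. OP9 was compared with NIH3T3 as a line that supports B-lymphoid cells against one that the paper found did not. The comparison with MC3T3 sets marrow stroma against an osteoblast-like line, for which the paper describes no test of such support.

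Per the methods and labels, the OP9 cells of both conditions carried a retrovirus for the red fluorescent protein mStrawberry and were sorted for it after co-culture, to separate the stroma from the pre-B cells. The OP9 controls were kept in conditioned medium according to the methods, whereas the labels call them only a culture. OP9 cells grew in OptiMEM and the other lines in DMEM, with the same serum supplement, so line and medium cannot be told apart. The OP9 arrays served both as the control of the co-culture and as one side of each comparison between OP9 and another line. The array of MC3T3 replicate 2 is described as coming from sorted cells and that of replicate 1 as coming from a culture. The labels number 2 biological replicates in each group and do not state that these were grown separately, so a p-value here reflects array-to-array spread that could be technical.

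Array medians lay between 41.77 and 44.99, and from 34.3 to 36.3% of probe sets reached 100 on an array. The arrays of a group correlated at 0.990 to 0.998 over genes, and 61 genes differed more than 2-fold between the NIH3T3 arrays, against at most 2 in any other group. Of the 8 marrow stroma markers, 7 reached 100 on both arrays of OP9 and of OP9 with 230-238, and 6 did so in NIH3T3 and in MC3T3. Their summed level was 42010 to 43610 in OP9, 6718 to 6773 in NIH3T3 and 9808 to 9888 in MC3T3. Lepr, a defining marker of marrow stroma in vivo, read 19.3 to 24.5 in OP9 and in OP9 with 230-238. Of the osteoblast markers named on the array, MC3T3 had 2 of 6 at 100 or more on both arrays, Col1a1 and Dmp1. Dmp1, a bone matrix protein, read 969.7 and 1142 in MC3T3, 17.5-fold above OP9 (limma adjusted p = 3.19e-08). It passed the filter only through MC3T3, where it is high, which favoured that call. Alpl, Ibsp, Sp7 and Phex stayed below 100 in MC3T3. OP9 also had 2 of 6 at that level, Col1a1 and Phex. Both were called higher in OP9 than in MC3T3, Col1a1 4.63-fold (limma adjusted p = 7.44e-07) and Phex 4.24-fold (adjusted p = 1.53e-05). The osteoblast list summed to 10300 to 10890 in OP9 and 3347 to 3475 in MC3T3, most of it Col1a1.

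Wnt proteins are secreted signals that bind Frizzled receptors on the cell surface, in many cases together with the co-receptors Lrp5 and Lrp6. In the canonical branch this stabilises beta-catenin, which enters the nucleus, joins factors of the TCF/LEF family on DNA and raises targets such as Axin2. In other branches, for which Wnt5a is best known, the signal alters cell polarity and movement without beta-catenin. Secreted antagonists act outside the cell: Sfrp proteins resemble the ligand-binding part of a Frizzled receptor and bind Wnt, while Dkk proteins bind the Lrp co-receptors, although Dkk3 is an unusual member of its family. In bone marrow, Wnt signals are known to act on blood precursors, on fat cell formation and on bone-forming cells.

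The promoters of 3 genes that turned out to separate the groups are shown, as the 250 bases before the transcription start in RefSeq (build GRCm38.p6), written 5′ to 3′ on the strand of the gene. Fzd1 lies on the minus strand (chr5:4758217-4758466), and Fzd7 (chr1:59481897-59482146) and Sfrp2 (chr3:83766071-83766320) on the plus strand. Capitals mark a match, on either strand, to CTTTG followed by 2 more letters that are each A or T, the core that TCF/LEF factors bind.
Fzd1: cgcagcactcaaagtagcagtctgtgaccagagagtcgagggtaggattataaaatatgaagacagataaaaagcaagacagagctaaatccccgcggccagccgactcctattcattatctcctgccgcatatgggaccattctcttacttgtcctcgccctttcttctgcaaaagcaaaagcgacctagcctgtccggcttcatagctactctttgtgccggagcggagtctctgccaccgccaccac
Fzd7: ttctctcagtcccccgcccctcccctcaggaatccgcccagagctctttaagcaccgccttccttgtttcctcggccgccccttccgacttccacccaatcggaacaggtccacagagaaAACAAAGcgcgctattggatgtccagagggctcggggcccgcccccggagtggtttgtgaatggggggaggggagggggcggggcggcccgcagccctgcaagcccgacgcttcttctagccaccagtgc
Sfrp2: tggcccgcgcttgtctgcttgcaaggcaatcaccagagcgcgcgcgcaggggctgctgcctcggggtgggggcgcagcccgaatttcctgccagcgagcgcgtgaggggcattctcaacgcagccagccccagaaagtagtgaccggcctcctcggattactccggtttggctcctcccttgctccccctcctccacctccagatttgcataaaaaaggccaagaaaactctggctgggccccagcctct
The promoter table held 6 of the 10 genes, and 1 of these, Fzd7, had a match, AACAAAG on the reverse strand with its first base 130 bases before the start. Of all 32851 promoters in the table, 14.8% had at least 1 match. A match describes these letters and is not evidence of a bound factor. GC content of the 6 promoters ran from 51.2% in Fzd1 to 85.2% in Wnt4, against a median of 52.4% over all promoters.

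Values are normalized intensities on a linear scale as deposited. Each gene is represented by the brightest of its probe sets on average, and intensities of different probe sets cannot be set against each other. A gene entered the test when 2 or more arrays reached 100, which kept 10084 genes. Of the 10 genes, 6 were tested (Wnt5a, Fzd1, Fzd2, Fzd7, Sfrp2 and Dkk3), while Wnt4, Sfrp1, Dkk2 and Axin2 did not reach the filter. Differences were tested with limma on log2 values, and a gene is called, and said to rise or fall, when the adjusted p is under 0.05 and the difference 2-fold or more.

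**Figure D1:**
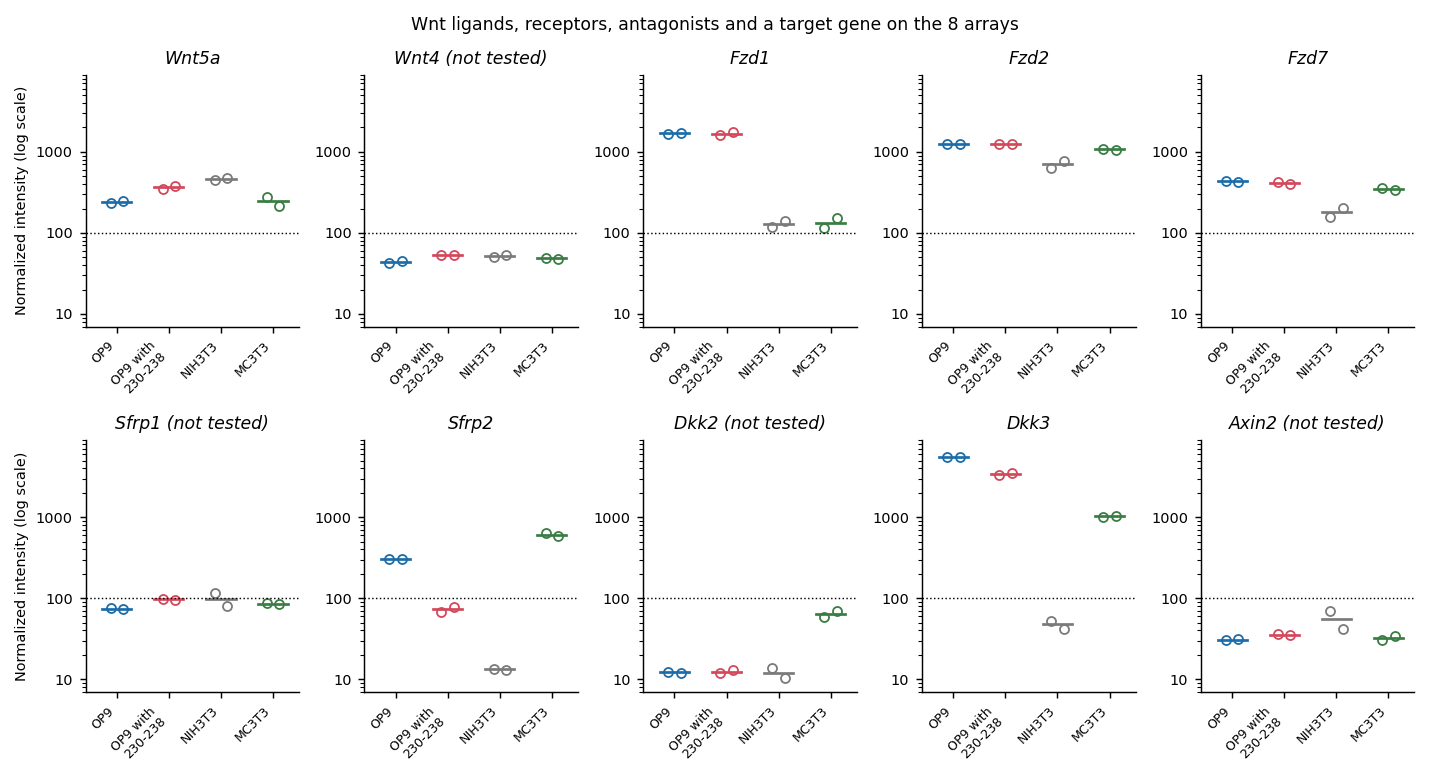
Normalized intensity on a log scale (vertical axis) of the 10 genes in the 4 groups (horizontal axis). Circles are the 8 single arrays, horizontal bars the means of 2 arrays, and the dotted line is 100, the level used by the filter. Fzd1 is at 1601 or more on the 4 arrays of OP9 cells and at 153.2 or less on the others, Sfrp2 is at 306.5 or more in OP9 and 78.3 or less in co-culture, and Dkk3 is at 52.9 or less in NIH3T3 and 1008 or more elsewhere.

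In co-culture, Sfrp2 was the only one of the 6 tested genes to be called, and it fell. Wnt5a read higher and Dkk3 lower by amounts short of 2-fold, and the 3 Frizzled genes differed by at most 1.07-fold. Across all 10084 genes, 5.67% were called in this comparison, 2.71% higher and 2.97% lower. The median log2 difference of the 6 genes was -0.053, and that of all genes tested was also -0.053.

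Compared with NIH3T3, OP9 cells had higher levels of Fzd1, Fzd7, Sfrp2 and Dkk3, which makes 4 of 6 called, all higher, where 30.8% of all genes were called, 20.5% higher and 10.3% lower. The median log2 difference of the 6 genes was 2.49 against 0.16 for all genes. That shift of all genes came down to 0.011 when the arrays were quantile normalized again, where the 4 calls remained and Wnt5a was called lower in OP9 (log2 -1.11). Compared with MC3T3, Fzd1 and Dkk3 were called higher in OP9, 2 of 6, where 19.9% of all genes were called, 10.5% higher and 9.41% lower. The medians here were 0.27 for the 6 genes and 0.032 for all genes. In the comparison without OP9 arrays, MC3T3 against NIH3T3, Sfrp2 and Dkk3 were called higher in MC3T3, again 2 of 6, where 27.4% of all genes were called, 17.8% higher and 9.65% lower. The medians were 0.78 and 0.12.

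**Figure D2:**
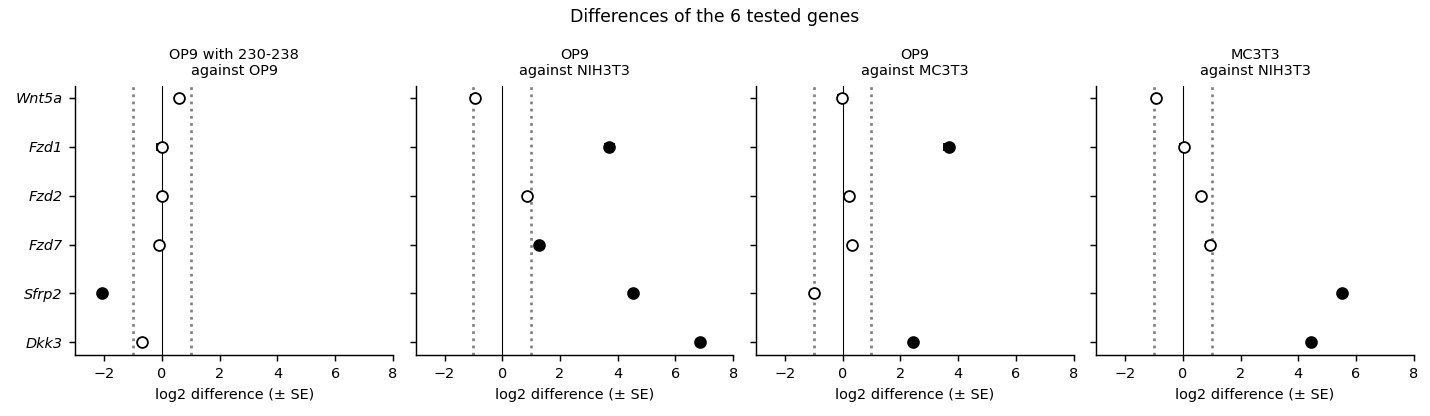
log2 differences (horizontal axis) of the 6 tested genes (vertical axis) in 4 comparisons, the first-named group minus the second. Filled circles are called genes, bars are standard errors from limma, mostly smaller than the symbols, and dotted lines mark 2-fold. One gene, Sfrp2, is called in co-culture, 4 are called in OP9 against NIH3T3, and 2 in each of the others.

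Of the ligands, Wnt5a, which signals mainly without beta-catenin, gave 231.7 and 249.4 on the OP9 arrays, 346.8 and 384.2 in co-culture, 450.4 and 482.3 in NIH3T3, and 275.3 and 217.7 in MC3T3. Both co-culture arrays stood above both OP9 arrays, both NIH3T3 arrays stood above all others, and OP9 and MC3T3 overlapped. Group means were 241 ± 12.5 in OP9, 365 ± 26.4 in co-culture, 466 ± 22.5 in NIH3T3 and 246 ± 40.8 in MC3T3 (SD, n = 2). In co-culture Wnt5a was 1.52-fold higher than in OP9 (log2 difference 0.60, SE 0.12, limma adjusted p = 0.00554), which is under the 2-fold limit.

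The Wnt5a level in OP9 was 1.94-fold below that of NIH3T3 (log2 -0.96, limma adjusted p = 0.000161) and that in MC3T3 1.90-fold below it (log2 -0.93, adjusted p = 0.000205). In the order of levels, NIH3T3 lay above co-culture (adjusted p = 0.0272) and co-culture above MC3T3 (adjusted p = 0.00314), while MC3T3 and OP9 did not differ beyond their spread (adjusted p = 0.858).

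A further probe set for Wnt5a, 1448818_at, gave 171.7 and 201.0 in OP9, 240.0 and 281.0 in co-culture, 371.8 and 402.0 in NIH3T3, and 151.5 and 150.0 in MC3T3. The order of the groups was similar, with OP9 now above MC3T3 on both arrays, and here the deficit against NIH3T3 passed the 2-fold limit for OP9 (2.08-fold) and for MC3T3 (2.56-fold). In co-culture it was 1.40-fold above OP9 (adjusted p = 0.0136 with each probe set fitted on its own). A probe set below the filter, 1437673_at, read 44.7 and 41.5 in OP9 and 81.5 and 74.2 in co-culture, with 38.1 to 49.1 in the other lines.

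Wnt4, a ligand known from kidney and reproductive tract development, stayed between 42.8 and 53.8 on all 8 arrays, below the filter. Both OP9 arrays, at 42.8 and 45.3, lay below the 6 others. With no filter, none of the comparisons called it, the widest difference being 1.22-fold between co-culture and OP9. The array therefore gave no level of Wnt4 that stood out from the bottom of the scale. Of the 17 other Wnt ligands on the array, only Wnt7a passed the filter, at 144.7 to 188.8 on the 8 arrays, and it was not called in any comparison.

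Among the receptors, Fzd1 was called higher in OP9 than in both other lines, as were Fzd4, Fzd5 and Fzd8, described further on. Fzd1 gave 1641 and 1730.3 on the OP9 arrays, 1601 and 1739 in co-culture, 117.6 and 140.6 in NIH3T3, and 114.0 and 153.2 in MC3T3. The 4 arrays of OP9 cells stood far above the 4 arrays of the other lines, and within each pair the groups overlapped. Means were 1685 ± 63.5 in OP9, 1670 ± 97.6 in co-culture, 129 ± 16.2 in NIH3T3 and 134 ± 27.7 in MC3T3 (SD, n = 2). The level in OP9 was 13.1-fold that in NIH3T3 (log2 3.71, SE 0.15, limma adjusted p = 2.69e-07) and 12.8-fold that in MC3T3 (log2 3.67, SE 0.15, adjusted p = 4.2e-07).

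In co-culture Fzd1 had a log2 difference of -0.014 from OP9 (adjusted p = 0.946), and its sign turned under quantile normalization. MC3T3 and NIH3T3 differed by 0.039 on the log2 scale (adjusted p = 0.820), again with a sign that turned. The dimmer probe set of Fzd1, 1422985_at, gave 300.9 and 225.1 in OP9, 159.4 and 220.5 in co-culture, 46.8 and 43.9 in NIH3T3, and 39.4 and 50.7 in MC3T3. It was called in the same comparisons with smaller folds, 5.74-fold against NIH3T3 and 5.82-fold against MC3T3. Here both co-culture arrays lay under both OP9 arrays, 1.39-fold lower on average (adjusted p = 0.113).

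Fzd2 gave 1239.6 and 1258 in OP9, 1258 and 1259.9 in co-culture, 636.9 and 761.0 in NIH3T3, and 1086 and 1067 in MC3T3. OP9 and co-culture overlapped, MC3T3 stood somewhat lower and NIH3T3 lowest. Means were 1249 ± 13.4, 1259 ± 1.19, 699 ± 87.7 and 1077 ± 13.5 in the same order (SD, n = 2). By this probe set OP9 was 1.79-fold above NIH3T3 (log2 0.84, limma adjusted p = 6.65e-05) and MC3T3 1.55-fold above it (log2 0.63, adjusted p = 0.000389), both under the 2-fold limit. Both OP9 arrays stood above both MC3T3 arrays, 1.16-fold on average, and the adjusted p of 0.0689 missed the threshold. OP9 and co-culture overlapped (adjusted p = 0.929).

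The probe sets of Fzd2 disagreed on the size of the gap to NIH3T3. With 1418534_at the values were 419.7 and 460.0 in OP9, 441.3 and 448.2 in co-culture, 88.5 and 91.7 in NIH3T3, and 421.7 and 470.1 in MC3T3. The NIH3T3 arrays alone were low, and both OP9 (4.88-fold) and MC3T3 (4.94-fold) were called above them. The remaining probe set, 1418533_s_at, whose probes can bind related transcripts, put OP9 at 1.74-fold and MC3T3 at 1.72-fold above NIH3T3, near the values of the brightest one. Whether Fzd2 is called between these lines thus depends on the probe set, while its direction is shared by all 3.

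**Figure D3:**
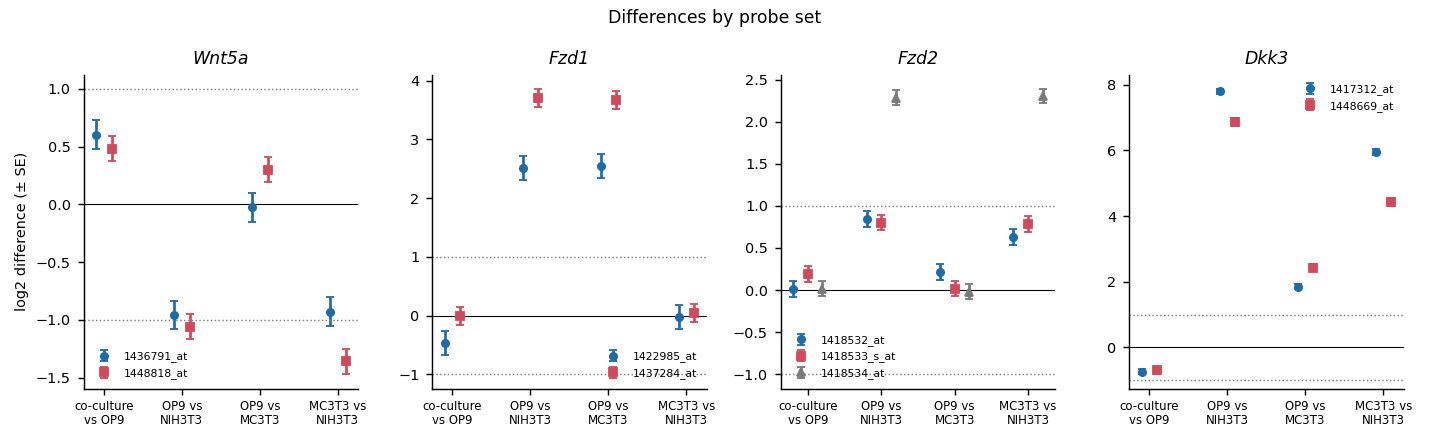
log2 differences (vertical axis, bars are standard errors from limma) in 4 comparisons (horizontal axis) for each tested probe set of Wnt5a, Fzd1, Fzd2 and Dkk3, every panel with its own scale. Dotted lines mark 2-fold. The probe sets of a gene share the direction of the large differences and disagree on their size, as for Fzd2 in OP9 against NIH3T3, at 1.74-, 1.79- and 4.88-fold, and for Dkk3 in MC3T3 against NIH3T3, at 21.6- and 62.0-fold.

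Fzd7, which like Fzd1 and Fzd2 belongs to the same branch of the Frizzled family, gave 442.9 and 427.8 in OP9, 419.1 and 397.9 in co-culture, 158.2 and 205.5 in NIH3T3, and 356.4 and 334.3 in MC3T3. NIH3T3 was again the lowest group, and no groups overlapped. Means were 435 ± 10.7, 409 ± 15.0, 182 ± 33.4 and 345 ± 15.6 (SD, n = 2). OP9 was 2.41-fold above NIH3T3 (log2 1.27, SE 0.12, limma adjusted p = 3.09e-05) and MC3T3 1.91-fold above it (log2 0.94, adjusted p = 0.000197). OP9 was 1.26-fold above MC3T3 (adjusted p = 0.0387), and co-culture differed from OP9 by -0.092 on the log2 scale (adjusted p = 0.568).

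A further probe set of Fzd7, 1450043_at, read 63.3 to 82.4 on all arrays and did not reach the filter. When the probe sets of a gene were averaged, the difference between OP9 and NIH3T3 dropped to 0.75 on the log2 scale and Fzd7 was no longer called. The single promoter match described above belongs to this gene.

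The other Frizzled genes that passed the filter were Fzd4, Fzd5 and Fzd8. Fzd5 gave 1097 and 1164 in OP9 and 95.8 and 86.1 in NIH3T3, a 12.4-fold difference (limma adjusted p = 3.78e-08). Fzd8 gave 749.4 and 738.2 in OP9 and 26.3 and 32.7 in NIH3T3, a 25.4-fold difference by the measured values (adjusted p = 1.3e-08). The NIH3T3 level of Fzd8 is low on the scale, so the size of this fold depends on how low values are handled, and with 16 added to every value the log2 difference came down from 4.66 to 4.06. Fzd4 gave 339.9 and 297.1 in OP9 and 122.2 and 110.3 in NIH3T3, a 2.74-fold difference (adjusted p = 8.06e-05). Of the 6 Frizzled genes tested, 5 were called higher in OP9 than in NIH3T3, where 20.5% of all genes were, and Fzd2 was 1.79-fold higher. These directions held under quantile normalization and median scaling. With the probe sets of a gene averaged, Fzd5 and Fzd8 were still called, at log2 differences of 2.42 and 3.07, Fzd7 was not, and Fzd4 no longer reached the filter. Against MC3T3, Fzd1, Fzd4, Fzd5 and Fzd8 were called higher in OP9, 4 of 6 where 10.5% of all genes were, with Fzd8 at 11.5-fold and Fzd5 at 5.79-fold. Fzd2 and Fzd7 were 1.16- and 1.26-fold higher there by their brightest probe sets. The other probe sets of Fzd2 showed no such gap, with log2 differences of 0.016 for 1418533_s_at and -0.019 for 1418534_at. Fzd8 passed the filter only through arrays of OP9 cells, where it is high, so its calls as higher in OP9 than in either line were favoured by the filter.

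In co-culture, Fzd4 was the only Frizzled gene called. It fell from 339.9 and 297.1 in OP9 to 126.5 and 177.1, or 2.12-fold (log2 -1.09, SE 0.16, adjusted p = 0.00147). This call was lost without OP9 replicate 1 or without OP9 with 230-238 replicate 1. Fzd8 read 464.7 and 443.8 in co-culture, 1.64-fold below OP9 (adjusted p = 0.0013). Fzd3, Fzd6, Fzd9 and Fzd10 stayed below 100 on every array.

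**Figure D4:**
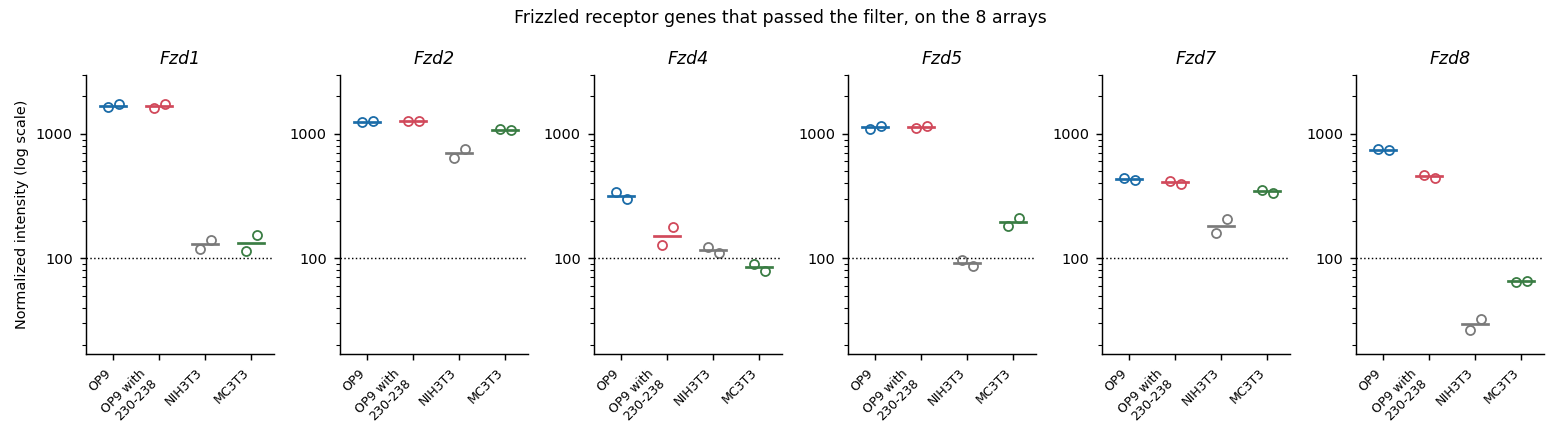
Normalized intensity on a log scale (vertical axis) of the 6 Frizzled genes that passed the filter, in the 4 groups (horizontal axis). Circles are single arrays, bars are means of 2 arrays and the dotted line is 100. In all 6 panels both OP9 circles stand above both NIH3T3 circles, with OP9 means from 2.41- to 25.4-fold above NIH3T3 in the 5 called genes and 1.79-fold for Fzd2, the fold of 25.4 being that of Fzd8, whose NIH3T3 level is low on the scale.

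Of the antagonists, Sfrp2, which can bind Wnt proteins outside the cell, was the only one of the 6 tested genes called in co-culture. It gave 306.5 and 308.6 in OP9, 68.5 and 78.3 in co-culture, 13.4 and 13.1 in NIH3T3, and 639.0 and 578.5 in MC3T3. No groups overlapped, with MC3T3 highest, OP9 next, co-culture well below and NIH3T3 at the bottom of the scale. Means were 308 ± 1.49, 73.4 ± 6.94, 13.3 ± 0.164 and 609 ± 42.8 (SD, n = 2).

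In co-culture Sfrp2 fell 4.20-fold (log2 -2.07, SE 0.09, limma adjusted p = 4.37e-06). In RNA pooled from many sorted cells, fewer cells that express a gene and less RNA per cell cannot be told apart. Each neighbouring pair in the order of Sfrp2 levels differed, with adjusted p = 3.33e-05 between MC3T3 and OP9, 4.37e-06 between OP9 and co-culture, and 1.6e-07 between co-culture and NIH3T3. The fold of MC3T3 over OP9 was 1.98 (log2 difference of OP9 from MC3T3 -0.98), which just missed the 2-fold limit and passed it at -1.02 under quantile normalization, at -1.01 under median scaling and at -1.06 without MC3T3 replicate 2. OP9 exceeded NIH3T3 23.2-fold (log2 4.54, SE 0.09, adjusted p = 7.02e-09) and MC3T3 exceeded it 45.8-fold (log2 5.52, adjusted p = 4.31e-09). Because the NIH3T3 level is near the bottom of the scale, the size of these folds depends on how low values are handled, and with 16 added to every value the difference between OP9 and NIH3T3 came to 3.47 on the log2 scale. Only 1 probe set measured this gene.

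Markers of fat cells fell in co-culture, as Sfrp2 did. Also called lower were Fap of the fibroblast list (10.7-fold), and Dmp1 (3.26-fold) and Phex (2.74-fold) of the osteoblast list. The other tested markers of those lists were not called. Fap passed the filter only through OP9, where it is high, which favoured its call as lower, and Dmp1 read below 100 in OP9 and in co-culture. The summed level of the 7 fat cell markers named on the array went from 36480 to 36610 in OP9 down to 11900 to 12010 in co-culture, and all but Pparg, which was 1.83-fold lower, were called lower. Adipoq, a hormone of mature fat cells, went from 10697 and 10639 to 357.9 and 337.0, and Cidec, a lipid droplet protein, from 115.9 and 113.7 to 14.0 and 14.4. Cidec also passed the filter only through OP9, which favoured its call as lower. Between lines the order was not shared, since MC3T3 had the highest Sfrp2 level and the lowest fat cell sum, 138.4 to 152.6. The part of fat cells in the Sfrp2 and Dkk3 differences was not tested. Of the pre-B cell markers, Vpreb1 went from 25.8 and 21.6 to 77.7 and 76.0 and Ptprc from 8.9 and 8.6 to 34.6 and 31.1, all below 100. The sum of the 13 pre-B markers named was 2274 to 2480 in OP9 and 1775 to 2035 in co-culture, most of it Ebf1, which OP9 cells themselves carried at 2146 and 1922. Ebf1 read 1267 and 1531 in co-culture. Every other pre-B marker named had a higher mean in co-culture than in OP9, with Dntt nearly level (31.8 and 31.7). Igll1 and Blnk passed the filter and were not called (limma adjusted p = 0.166 and 0.114). Whether RNA of pre-B cells entered the co-culture values was not tested.

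Dkk3 was called in each comparison between lines. With 1448669_at it gave 5481 and 5534 in OP9, 3285 and 3518 in co-culture, 52.9 and 42.1 in NIH3T3, and 1008 and 1032 in MC3T3. OP9 was highest, co-culture and MC3T3 followed without overlap, and only NIH3T3 lay below 100. Means were 5508 ± 36.9, 3402 ± 165, 47.5 ± 7.58 and 1020.0 ± 17.2 (SD, n = 2). The level in OP9 was 117-fold that in NIH3T3 (log2 6.87, SE 0.11, limma adjusted p = 3.21e-09) and 5.40-fold that in MC3T3 (log2 2.43, SE 0.11, adjusted p = 7.28e-07), and MC3T3 was 21.6-fold above NIH3T3 (log2 4.43, adjusted p = 3.09e-08).

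In co-culture Dkk3 was 1.62-fold lower than in OP9 (log2 -0.70, SE 0.11, adjusted p = 0.00179), short of the 2-fold limit. The probe set 1417312_at gave 5448 and 5727 in OP9, 3410 and 3290 in co-culture, 24.1 and 26.2 in NIH3T3, and 1514 and 1596 in MC3T3, with the same order of groups. It put the difference at 1.67-fold lower in co-culture, 223-fold between OP9 and NIH3T3, 3.59-fold between OP9 and MC3T3, and 62.0-fold between MC3T3 and NIH3T3. The fat cell list was also lower in both other lines than in OP9, with sums of 4769 to 5021 in NIH3T3 and 138.4 to 152.6 in MC3T3. Between these lines the order was not shared, since Dkk3 was higher in MC3T3 and the fat cell sum higher in NIH3T3.

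Dkk2, an antagonist that can also activate the pathway in some settings, gave 12.4 and 12.1 in OP9, 11.8 and 13.0 in co-culture, 13.7 and 10.2 in NIH3T3, and 59.2 and 68.6 in MC3T3. Only the MC3T3 arrays stood apart, and all were below 100, so the gene was left out by the filter. With no filter, MC3T3 was 5.20-fold above OP9 (limma adjusted p = 9.06e-06) and 5.38-fold above NIH3T3 (adjusted p = 6.35e-06), and OP9, co-culture and NIH3T3 did not differ beyond their spread. Levels this low sit near the bottom of the scale.

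Sfrp1 was measured by 5 probe sets, of which the brightest, 1438620_x_at, can bind related transcripts. It gave 74.8 and 74.4 in OP9, 97.1 and 95.8 in co-culture, 114.4 and 80.0 in NIH3T3, and 86.2 and 83.8 in MC3T3. The highest reading came from NIH3T3 replicate 1, and the other array of that line lay below both MC3T3 arrays. With no filter, none of the comparisons called it, the widest being co-culture 1.29-fold above OP9 (adjusted p = 0.145). The other 4 probe sets of Sfrp1 read between 7.68 and 49.1 on all arrays.

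Axin2, read as a target of the canonical branch, gave 30.1 and 31.7 in OP9, 36.1 and 35.1 in co-culture, 70.4 and 41.2 in NIH3T3, and 30.9 and 34.4 in MC3T3. NIH3T3 stood higher on both arrays, mostly through replicate 1, and OP9 and MC3T3 overlapped. With no filter, OP9 was 1.74-fold below NIH3T3 (limma adjusted p = 0.0161) and 1.15-fold below co-culture (adjusted p = 0.596), and no comparison was called. A further probe set, 1421341_at, read 11.7 to 17.9. A difference in Axin2 between OP9 alone and in co-culture was not detectable at these levels.

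The remainder of the pathway was read through a list of 92 other Wnt genes, of which 89 were named on the array and 44 passed the filter. In co-culture, 4 of 44 were called, 2 higher and 2 lower, which is 9.09% against 5.67% of all genes, and their median log2 difference was -0.20 against -0.053. Rspo2, a secreted protein that strengthens Wnt signals at the receptor, rose from 557.1 and 534.3 to 1629 and 1751, or 3.10-fold (limma adjusted p = 1.67e-05). When its 2 probe sets were averaged the difference was 0.81 on the log2 scale, and Rspo2 was not called. Myc, a growth regulator and target of several pathways, rose from 231.1 and 227.8 to 538.1 and 599.9, or 2.48-fold (adjusted p = 2.15e-05). Both co-culture arrays exceeded both OP9 arrays for Rspo2 and for Myc.

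Apcdd1, a membrane protein that inhibits Wnt signals, fell from 51.0 and 51.6 to 18.8 and 26.0, or 2.32-fold (adjusted p = 0.000391). It passed the filter through NIH3T3 and MC3T3, since all 4 OP9 arrays were below 100, and its call was lost without OP9 with 230-238 replicate 1 and with 16 added to every value (log2 -0.82). Fzd4 was the other gene that fell, as given above. Sfrp4, a relative of Sfrp2, read 130.4 and 126.4 in OP9 and 226.3 and 233.5 in co-culture, 1.79-fold higher (adjusted p = 0.000249), while Sfrp2 fell.

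Against NIH3T3, 15 of the 44 were called, 10 higher and 5 lower in OP9, which is 34.1% against 30.8% of all genes, with a median of 0.27 against 0.16. By role, 5 of the 7 receptors and co-receptors in the list were called higher and none lower, and 3 of 14 cytoplasmic components were called higher and 1 lower. Of 5 genes of receptor control 1 was called higher and 2 lower, and of 4 feedback and target genes 2 were called lower and none higher. The 5 lower genes were Myc, Apcdd1, Dvl1, Ccn4 and Lgr4. Myc was 12.1-fold lower in OP9 (limma adjusted p = 1.3e-08) and Apcdd1 6.61-fold (adjusted p = 8.96e-07), while Lgr4, a receptor for R-spondins, was 2.41-fold lower and was not called with probe sets averaged. Besides Fzd8 and Fzd5, the higher genes with the largest differences were Rspo2 and Gpc4, a cell surface proteoglycan that takes part in Wnt binding. Rspo2 was 35.6-fold higher in OP9 (limma adjusted p = 5.85e-09), with 14.5 and 16.3 in NIH3T3. Gpc4 gave 326.5 and 346.3 in OP9 and 8.7 and 15.0 in NIH3T3, 29.4-fold apart (adjusted p = 4.69e-07). As for Sfrp2 and Dkk3, the NIH3T3 level of both was at the bottom of the scale, and with probe sets averaged the log2 differences were 2.53 for Rspo2 and 3.60 for Gpc4.

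Against MC3T3, 14 of the 44 were called, 9 higher and 5 lower in OP9, which is 31.8% against 19.9% of all genes, with a median of 0.066 against 0.032. Sostdc1, a secreted inhibitor of Wnt and BMP signals, gave 22.0 and 20.0 in OP9 and 1241 and 1463 in MC3T3, 64.2-fold lower in OP9 by the measured values (limma adjusted p = 4.05e-08). The OP9 level is at the bottom of the scale, and with 16 added to every value the log2 difference went from -6.00 to -5.20. Sostdc1 passed the filter only through MC3T3, where it is high, which favoured its calls as higher in MC3T3. Apcdd1 was 7.20-fold lower in OP9 (adjusted p = 1.09e-06), at 366.6 and 372.9 in MC3T3. The antagonists ran in both directions between these lines, with Dkk3 higher in OP9 and Sostdc1 higher in MC3T3.

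Between MC3T3 and NIH3T3, 16 of the 44 were called, 10 higher and 6 lower in MC3T3, which is 36.4% against 27.4% of all genes, with a median of 0.11 against 0.12. Rspo2 was 76.1-fold (limma adjusted p = 3.29e-09), Sostdc1 50.0-fold (adjusted p = 4.33e-08) and Gpc4 40.2-fold (adjusted p = 3.68e-07) higher in MC3T3 by the measured values, all against NIH3T3 levels under 30. With 16 added to every value the log2 differences were 5.24, 4.99 and 4.10 in that order, and with probe sets averaged 3.09, 6.37 and 3.88. Myc gave 565.0 and 560.6 in MC3T3 and 2668 and 2893 in NIH3T3, 4.94-fold lower in MC3T3 (adjusted p = 1.65e-07).

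**Figure D5:**
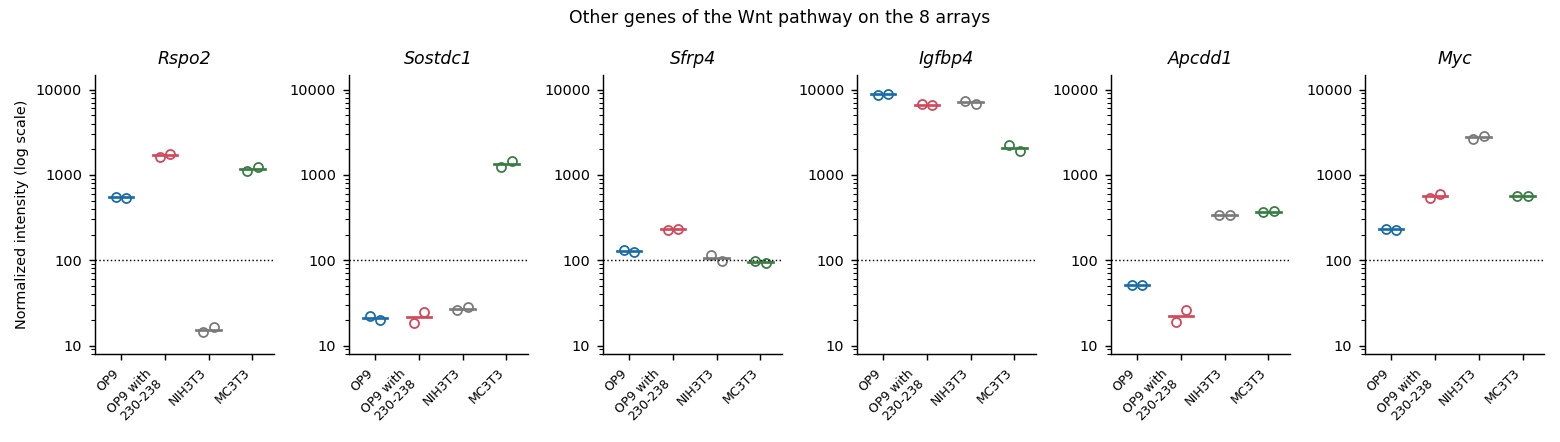
Normalized intensity on a log scale (vertical axis) of 6 other Wnt pathway genes in the 4 groups (horizontal axis). Circles are single arrays, bars are means of 2 arrays and the dotted line is 100. Rspo2 and Myc are 3.10- and 2.48-fold higher in co-culture than in OP9, and Sostdc1 is at 1241 or more in MC3T3 and under 100 elsewhere.

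Within the canonical branch, factors that act in the nucleus and the cytoplasm differed between lines by unlike amounts. Tcf7l1, a factor of the TCF/LEF family, gave 1793 and 1737 in OP9, 904.6 and 1160.2 in co-culture, 345.7 and 353.2 in NIH3T3, and 806.7 and 935.6 in MC3T3. Both OP9 arrays stood above all others. OP9 was 5.05-fold above NIH3T3 (limma adjusted p = 1.28e-06) and 2.03-fold above MC3T3 (adjusted p = 0.000200), a call lost with probe sets averaged, under median scaling, without OP9 replicate 1 and without MC3T3 replicate 1. In co-culture Tcf7l1 was 1.72-fold lower (adjusted p = 0.00205), short of the 2-fold limit. The Dishevelled genes, which pass the signal on from Frizzled, ran in opposite directions against NIH3T3, with Dvl1 3.28-fold lower in OP9 (adjusted p = 1.85e-05) and Dvl2 2.31-fold higher (adjusted p = 2.99e-06).

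Ctnnb1, which encodes beta-catenin, gave 9207 and 9236 in OP9, 8480.5 and 8321 in co-culture, 7398 and 7249 in NIH3T3, and 6634 and 6786 in MC3T3. It was not called in any comparison, OP9 being 1.26-fold above NIH3T3 (limma adjusted p = 0.00155) and 1.37-fold above MC3T3 (adjusted p = 0.000359). The co-receptor Lrp6 gave 590.3 and 569.2 in OP9 and 405.4 and 420.2 in co-culture, 1.40-fold lower (adjusted p = 0.00759), with 576.5 and 646.6 in NIH3T3 and 477.3 and 576.6 in MC3T3. Wls, which carries Wnt proteins to the cell surface, gave 3651 and 3897 in OP9, 2949 and 3106 in co-culture, 1993 and 2125 in NIH3T3, and 2617 and 2589 in MC3T3. OP9 held the highest Wls level, 1.83-fold above NIH3T3 (adjusted p = 1.47e-05) and under the 2-fold limit.

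Lef1, Lrp5 and Ror2 did not reach the filter, and Tcf7 was not named here. Lef1, a partner of beta-catenin, read 44.8 to 80.8 over the arrays. Lrp5 read 55.4 and 56.2 in OP9, 33.5 and 28.6 in co-culture, 96.4 and 112.2 in NIH3T3, and 69.1 and 52.2 in MC3T3. Ror2, a receptor for Wnt5a, read 10.3 and 11.2 in OP9, 11.7 and 13.3 in co-culture, 37.2 and 20.0 in NIH3T3, and 78.5 and 48.7 in MC3T3. Ror2 was lowest in the OP9 cells of both conditions.

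For each of the 6 tested genes, the 2 tested genes with the most similar profile were found by Pearson correlation of log2 values over the 8 arrays, which share lines and array pairs. Wnt5a was most like Fbln2 (r = 0.977) and Rpl37 (r = 0.976), and 36 genes reached 0.95. Fzd1 was most like Ube2f and Lrrc27 (both r = 0.999), with 478 genes at 0.95 or more. Dkk3 was most like Tm7sf3 (r = 0.999) and Socs2 (r = 0.999), with 736 such genes, and Sfrp2 most like Echdc1 (r = 0.999) and Atp5j (r = 0.997), with 271. Fzd2 was most like Fuca1 and Krba1 (both r = 0.998), with 648, and Fzd7 most like Ttc30b and Mrpl19 (both r = 0.996), with 649. Of the 6 genes, Wnt5a had the fewest at that level of likeness.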

How the data were processed

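RNA of 4 groups of cultured cells was measured on Affymetrix Mouse Genome 430 2.0 arrays, 2 per group, grouped by the sample labels. Intensity values are those the authors deposited, already normalized and on a linear scale. Several programs appear in the methods (dChip, affylmGUI and RMA Express), and which of them wrote the values was not given. Of 45101 probe sets, 34958 carried a single gene symbol, 932 more than 1 and 9211 no symbol. Gene numbers matched 34754 of the first, with 0 symbols changed, and only probe sets with a single symbol were used.

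The log2 of each value was used with no pseudocount. For each gene the probe set with the highest mean log2 value was taken, and genes at 100 or more on 2 or more arrays were tested. Group means were fitted on all 8 arrays with lmFit and eBayes of limma 3.58.1 in R 4.3.3, with Benjamini-Hochberg adjustment over 10084 genes. The model was tested on simulated data. Members and lists were chosen with earlier results of these data known. All 10 genes were named, with up to 4 called genes of the pathway list per comparison whose arrays did not overlap and had the largest differences, and Lef1, Tcf7, Ctnnb1, Lrp5, Lrp6, Wls and Ror2 in any case. Other genes named were chosen after their values were seen. Alternatives were other filters, quantile normalization, median scaling, a pseudocount of 16, other choices of probe set, prior, arrays and threshold, the replicate number as a block, and each array left out. Promoters came from RefSeq (GRCm38.p6). The number of arrays limits the precision.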

Additional observations from a re-analysis of the deposited data

How the results depend on the processing

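This count covers the alternatives that kept the 2-fold limit and 1 value per gene. The log2 differences of the 6 tested genes kept their direction and their side of the threshold in 409 cases, passed it newly in 12, lost it in 1 and turned in 10. Many of these cases could not change a log2 difference, namely other filters and priors, the replicate block and arrays left out of groups not compared. The 409 is therefore not a measure of stability. The one lost was Fzd7 between OP9 and NIH3T3 (0.75 with probe sets averaged). The turned ones were all near 0: Fzd1 in co-culture (0.027 under quantile normalization, -0.074 to 0.046 with single arrays left out), Fzd2 in co-culture (-0.014 under median scaling), Wnt5a between OP9 and MC3T3 (0.11 with probe sets averaged, -0.20 to 0.14 with single arrays left out) and Fzd1 between MC3T3 and NIH3T3 (-0.098 under quantile normalization, -0.17 to 0.25 with single arrays left out).

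The number of the 10 genes called in co-culture went from 1 to 3 with no minimum fold and to 0 with the 5-fold criterion of the methods. It went from 2 to 4 for OP9 against MC3T3 with no minimum fold, and for MC3T3 against NIH3T3 from 2 to 5 with no minimum fold and to 4 with each probe set on its own. Of the other pathway genes, the 4 called in co-culture became 25, the 15 against NIH3T3 37, the 14 against MC3T3 31 and the 16 between MC3T3 and NIH3T3 32 with no minimum fold, and 0, 9, 5 and 3 at 5-fold. With probe sets averaged, those in co-culture became 2 and those against MC3T3 became 8. Over all genes, 572, 3106, 2011 and 2767 were called, 4314, 7855, 6713 and 7542 with no minimum fold, and 63, 836, 548 and 672 at 5-fold.

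With each array left out, the 10 genes gave 1 call in co-culture throughout, 4 to 5 against NIH3T3, 2 to 3 against MC3T3 and 2 to 3 between MC3T3 and NIH3T3, and the other pathway genes gave 2 to 6, 15 to 16, 13 to 14 and 15 to 17. The low of 2 came without OP9 with 230-238 replicate 1, which lost Fzd4 and Apcdd1. Wnt5a was called between OP9 and NIH3T3 without OP9 replicate 2 or NIH3T3 replicate 1 and between MC3T3 and NIH3T3 without MC3T3 replicate 1. Sfrp2 was called between OP9 and MC3T3 without MC3T3 replicate 2, and Fzd7 between MC3T3 and NIH3T3 without NIH3T3 replicate 2. Leaving out an array leaves a lone array in its group, assumed to vary like the other groups.

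Deviations of same-numbered arrays correlated at -0.00385 to 0.181 over genes. With 2 arrays per group this cannot decide whether the replicate numbers pair the arrays. With the replicate block, the 10 genes again gave 1, 4, 2 and 2 calls and all genes 572, 3106, 2011 and 2767. Signal near the bottom of the scale limits what can be said of Wnt4, Sfrp1, Dkk2 and Axin2, which were tested only with no filter.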
